A study of Mus musculus with 54 samples.

Results

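A total of 9 genes, listed as Purkinje cell genes after the output neurons of the cerebellar cortex, were followed among the 47069 genes counted by RNA-seq in the mouse brain: Pcp2, Pcp4, Calb1, Car8, Itpr1, Ppp1r17, Rora, Slc1a6 and Gdf10. They were chosen by name and found in the count table by their Ensembl identifiers, and the rule used no expression value. The libraries came from 18 mice at 8 weeks of age on a C57BL/6 background, with cerebellum, cortex and striatum of each mouse sequenced as a separate library. Of these mice, 10 carried 1 allele of Mbd5 with a gene trap inserted in the second intron (Mbd5+/GT) and 8 were wild type (WT) from the same 3 litters. The trap allele is hypomorphic and is carried by all cells of the body. Genotype was least balanced in litter 2, where a single WT mouse stood against 4 Mbd5+/GT littermates. All mice of litter 1 were female and all of litter 2 male, and litter 3 held both sexes, so litter and sex largely go together. In these bulk samples, fewer Purkinje cells and less RNA per Purkinje cell cannot be told apart.

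Purkinje cells receive excitation from the parallel fibres of granule cells and from climbing fibres, and they inhibit the deep cerebellar nuclei. At the parallel fibre synapse, signalling through Gq (Gnaq) and phospholipase C (Plcb4, Plcb3) forms IP3, and IP3 opens the receptor encoded by Itpr1 to release calcium from internal stores. Car8 encodes a carbonic anhydrase-like protein without catalytic activity that binds this receptor and lowers its affinity for IP3. Calb1 encodes the calcium buffer calbindin, and Pcp4 encodes a small calmodulin-binding protein. Pcp2 encodes a modulator of Gi/o proteins, and Ppp1r17 encodes a substrate of cGMP-dependent protein kinase that inhibits protein phosphatases. Slc1a6 encodes the glutamate transporter EAAT4, and Rora encodes a nuclear receptor whose loss stunts Purkinje cells in the staggerer mouse. Gdf10 encodes a secreted ligand of the TGF-beta family and is known in the adult cerebellum from Bergmann glia.

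In GRCm38 coordinates, Pcp2 lies at chr8:3623371-3625545 on the minus strand, Pcp4 at chr16:96467606-96525793 and Rora at chr9:68653786-69388246, both on the plus strand. Pcp2 shares 941 bases of exon with Pet100 on the opposite strand, and Pcp4 shares 243 bases with Igsf5 on the same strand. How the strand was treated in counting is not given in the sources used here, so reads in these stretches are uncertain. Levels are given as CPM, the counts of a gene scaled to the same library total in each library. Pet100 stood at 8.07 to 18.7 CPM in cerebellum and at 12.9, 15.2 and 20.1 CPM as the median of cerebellum, cortex and striatum, a span far below that of Pcp2 in cerebellum. In cortex and striatum Pcp2 had medians of 0.31 and 0.41 CPM, far below those of Pet100. The part of reads from Pet100 in these low Pcp2 levels was not tested. Igsf5 did not exceed 1.67 CPM in any library.

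RefSeq promoter windows, from 250 bases before to 50 bases after a start site, were found for 5 of the 9 genes (Pcp2 with 4 start sites, Pcp4, Rora, Slc1a6 and Gdf10), and none was held for Calb1, Car8, Itpr1 or Ppp1r17. They were searched on both strands for AGGTCA, the core letters bound by nuclear receptors such as RORA, since Rora is itself a member. The letters occurred in windows of Pcp2 and Pcp4 and in none of the windows of Rora, Slc1a6 or Gdf10. Of all 32851 windows in the table, 16.3% held them, and 2.61% held the longer TAGGTCA, which no member's window held. The windows of Pcp2 (chr8:3625498-3625797, minus strand, GRCm38.p6) and Pcp4 (chr16:96467356-96467655, plus strand, GRCm38.p6) are shown because both hold the motif although Pcp2 was nearly confined to cerebellum and Pcp4 was not, with capitals marking AGGTCA or, on the opposite strand, TGACCT:
Pcp2: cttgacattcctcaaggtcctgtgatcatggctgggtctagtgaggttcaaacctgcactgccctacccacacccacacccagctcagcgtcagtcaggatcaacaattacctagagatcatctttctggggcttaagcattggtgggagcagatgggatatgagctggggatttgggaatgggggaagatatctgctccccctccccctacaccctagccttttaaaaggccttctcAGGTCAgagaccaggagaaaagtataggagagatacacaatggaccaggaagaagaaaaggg
Pcp4: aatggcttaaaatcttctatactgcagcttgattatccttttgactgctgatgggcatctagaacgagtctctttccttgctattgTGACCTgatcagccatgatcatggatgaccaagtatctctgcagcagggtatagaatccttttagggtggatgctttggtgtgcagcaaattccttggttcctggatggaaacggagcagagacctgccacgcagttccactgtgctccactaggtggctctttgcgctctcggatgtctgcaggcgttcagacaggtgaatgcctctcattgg
In Pcp2 the motif ran in the direction of the gene at bases 239 to 244 of the window, and in Pcp4 it ran in the opposite direction at bases 87 to 92. A match describes these letters only and was not tested for binding.

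Some libraries stood apart in the genes that define their region, and this touched every result on the members in cerebellum. The library labelled cerebellum of Mbd5+/GT mouse M755 held almost none of the markers of granule cells, the most numerous cerebellar neurons. Their sum over 8 genes was 167 CPM there, against 3948 to 6953 CPM in 16 other cerebellum libraries, and Gabra6 stood at 1.76 CPM against 539 to 955 CPM. In the same library the sum of 6 Hox genes, which mark hindbrain and spinal cord behind the cerebellum, was 245.7 CPM, while no cortex or striatum library exceeded 0.26 CPM. Genes of oligodendrocytes summed to 29580 CPM, against 3779 to 8547 CPM in the 16 libraries. The library labelled cerebellum of WT mouse M754 lay between, with 1877 CPM of granule cell markers, 110 CPM of Hox genes and 17780 CPM of oligodendrocyte genes. Hox genes were also found in the cerebellum libraries of WT mouse M761 (42.8 CPM) and Mbd5+/GT mouse M756 (41.4 CPM), with 3948 and 4837 CPM of granule cell markers. Genotype effects of the members in cerebellum, and correlations among them, are therefore given with and without the libraries of mice M754 and M755. Other results on cerebellum, the region differences among them, use all 18 libraries unless stated. Between 25295973 and 49027399 reads were counted per library. The genotype labels held, with Mbd5 lower in Mbd5+/GT by 0.34 on the log2 scale in cerebellum (adjusted p = 0.00912), 0.49 in cortex (adjusted p = 0.00012) and 0.51 in striatum (adjusted p = 9.41e-05) in edgeR's quasi-likelihood test. The p-values for genotype within a region measure the spread between mice. Those of the region tests measure the spread between libraries, since that fit held no term for the mouse.

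To ask where the members were expressed, levels were set side by side over the regions. Pcp2 and Ppp1r17 were nearly confined to cerebellum, Car8, Slc1a6 and Gdf10 were many times higher there, and Calb1, Itpr1 and Rora were higher in cerebellum but well expressed in the other regions. Pcp4 had its highest level in striatum. In edgeR's quasi-likelihood test over all 54 libraries, 9 of 9 members were higher in cerebellum than in cortex at adjusted p under 0.05. There 68.9% of the 20477 genes tested differed in either direction, and 7278 were higher in cerebellum. Against striatum, 8 of 9 members were higher in cerebellum and Pcp4 was lower, where 75.2% of genes differed and 7776 were higher in cerebellum. Between cortex and striatum, 4 of 9 differed, where 58.9% of genes differed. Since most genes differed between regions, the counts of members say little, and the sizes are given beside them: between cerebellum and cortex the median absolute log2 difference was 0.46 over all genes, and the median member was Slc1a6 with 4.34 (SE 0.22).

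**Figure D1:**
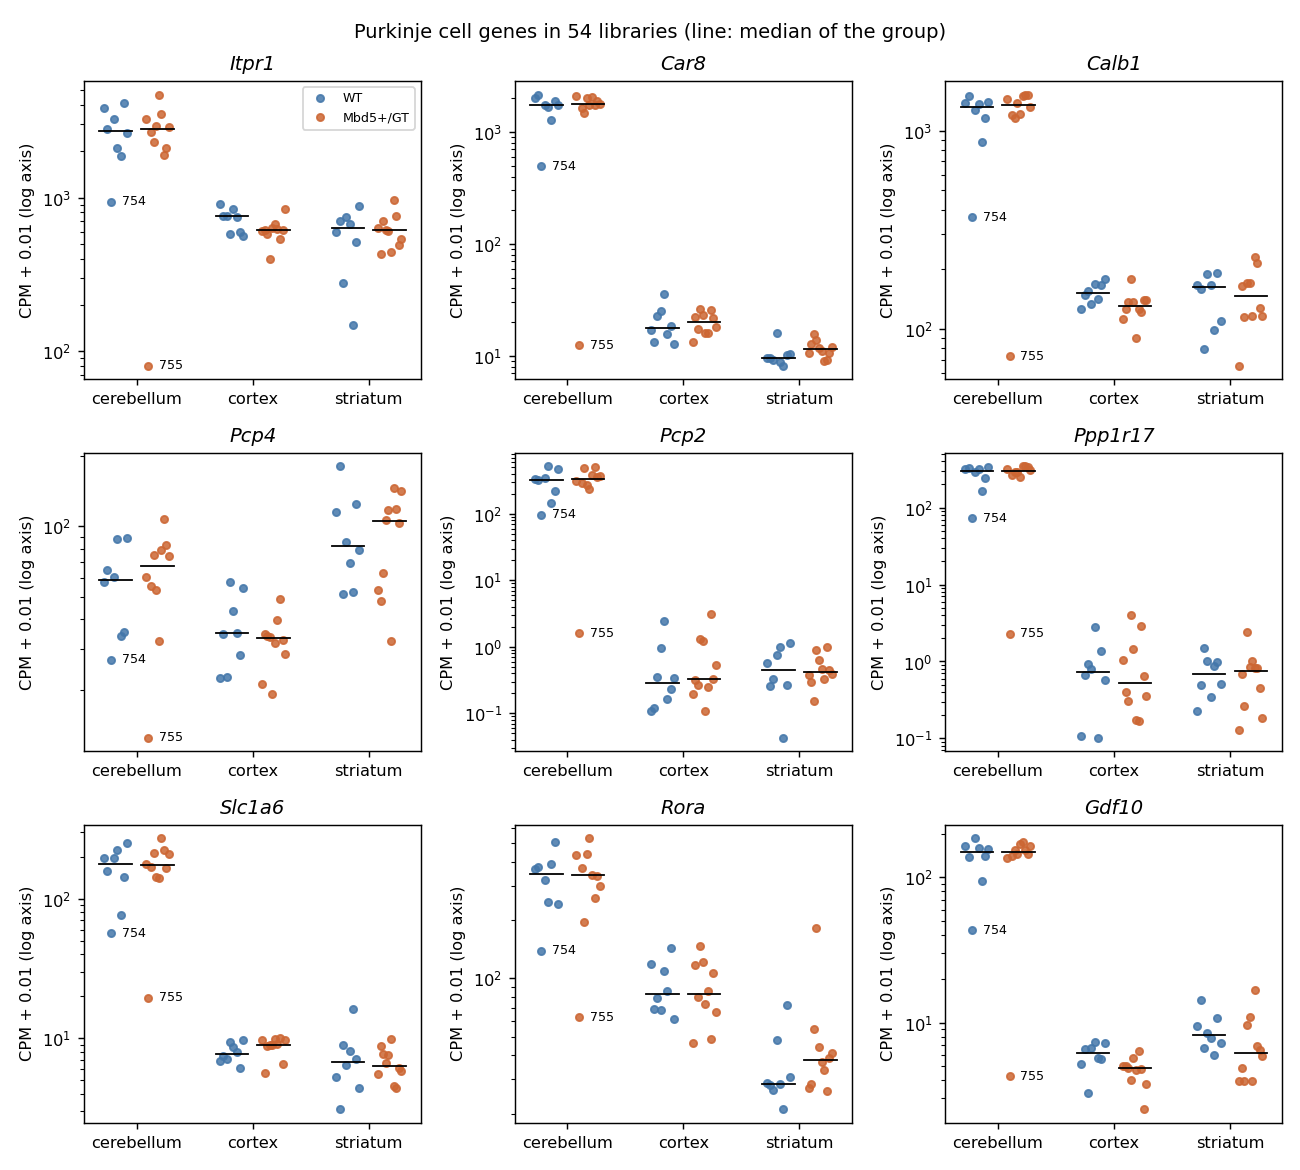
Level of each member (CPM plus 0.01, log axis) in each of the 54 libraries, by region and genotype, with a line at the median of each group. Pcp2 and Ppp1r17 lie between 0.03 and 3.96 CPM outside the cerebellum, and the cerebellum libraries of mice M754 and M755, marked by number, lie below the others.

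Pcp2 stood in WT cerebellum at 97.6, 146, 220, 326, 331, 350, 480 and 517 CPM, in rising order, the lowest being mouse M754 and the next mouse M761. In Mbd5+/GT cerebellum it ranged from 1.60 CPM in mouse M755, with the next library at 234 CPM, over a median of 336 to 505 CPM. In cortex it ranged from 0.097 to 3.07 CPM with a median of 0.31, and in striatum from 0.033 to 1.14 CPM with a median of 0.41. The libraries of cerebellum and of the other regions did not overlap apart from mouse M755, whose 1.60 CPM was lower than in 2 of the cortex libraries. The log2 difference was 8.85 (SE 0.48) from cortex and 9.25 (SE 0.50) from striatum (adjusted p = 1.95e-22 and 8.16e-23, edgeR). Ppp1r17 followed the same order, with medians of 302, 0.64 and 0.75 CPM (cerebellum, cortex, striatum) and log2 differences of 8.02 (SE 0.46) from cortex and 8.46 (SE 0.47) from striatum. For both genes, cortex and striatum did not differ beyond the spread between libraries (adjusted p = 0.501 for Pcp2 and 0.402 for Ppp1r17, edgeR).

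Itpr1 and its binding partner Car8 differed in how far they were restricted. Itpr1 ranged from 80.1 CPM in mouse M755 over a median of 2735 to 4694 CPM in cerebellum, from 398 to 915 CPM in cortex and from 147 to 961 CPM in striatum. Its lowest value among the 16 cerebellum libraries without mice M754 and M755 was 1879 CPM, above every library of the other regions, and the log2 difference was 2.01 (SE 0.23) from cortex and 2.17 (SE 0.23) from striatum. Car8 stood at 12.5 CPM in mouse M755 and 495 CPM in mouse M754, and at 1274 to 2161 CPM in the 16 other cerebellum libraries. It ranged from 12.7 to 35.6 CPM in cortex and from 8.12 to 15.8 CPM in striatum. The log2 difference of Car8 was 6.35 (SE 0.29) from cortex and 7.23 (SE 0.30) from striatum, and it was higher in cortex than in striatum by 0.88 (SE 0.23, adjusted p = 0.00119, edgeR).

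The calcium buffer Calb1 had a median of 1338 CPM in cerebellum against 138 in cortex and 162 in striatum. Its 16 cerebellum libraries spanned 871 to 1517 CPM and did not overlap the other regions, which reached 230 CPM in 1 striatum library, and its cortex and striatum levels did not differ beyond their spread (log2 difference -0.06, SE 0.18, adjusted p = 0.8, edgeR). Pcp4, the calmodulin-binding protein, was the exception to the cerebellar pattern. It ranged from 12.5 to 107 CPM in cerebellum, from 19.3 to 58.0 CPM in cortex and from 32.4 to 179.8 CPM in striatum, and all 3 ranges overlapped. Striatum was highest, above cerebellum by 0.64 (SE 0.20, adjusted p = 0.00439) and above cortex by 1.43 (SE 0.21, adjusted p = 1.4e-07), and cerebellum was above cortex by 0.79 (SE 0.21, adjusted p = 0.000648), all on the log2 scale in the edgeR test. Without mice M754 and M755 the difference between cerebellum and striatum was -0.53 (adjusted p = 0.01).

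The transporter gene Slc1a6 had a median of 174 CPM in cerebellum against 8.85 in cortex and 6.51 in striatum. Its value in mouse M755, 19.5 CPM, was the only one of that library to stay above all 36 cortex and striatum libraries, which reached 16.1 CPM. The nuclear receptor gene Rora had medians of 341, 82.7 and 32.2 CPM, and its order over regions was cerebellum, cortex and striatum, with log2 differences of 1.85 (SE 0.23) and 1.09 (SE 0.22) between neighbours (adjusted p = 4.05e-10 and 5.29e-05, edgeR). Gdf10 had medians of 149.9, 5.11 and 7.05 CPM over the same order of regions, and was lower in cortex than in striatum by 0.61 (SE 0.22, adjusted p = 0.0179, edgeR). Gdf10 was low in mouse M755, as the neuronal genes were, at 4.26 CPM, and the 7 genes of Bergmann glia and astrocytes did not move one way there. Slc1a3 (190.5 CPM) and Hopx (69.6 CPM) lay below the 16 other libraries, which spanned 891 to 1742 and 93.2 to 229.9 CPM, while Gfap (1369 CPM) and Gja1 (324 CPM) lay above them, over 104 to 220.4 and 214 to 259 CPM. Aqp4, Aldh1l1 and Sept4 lay within the range of the 16, as did the sum of the 7 genes, at 3061 CPM against 2578 to 3395 CPM.

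To compare levels between members, CPM were divided by exon length. This length counts every base held by an exon of any annotated transcript, and can exceed that of the transcripts present. The order below depends on it, and no other length was tried. In the 16 cerebellum libraries Car8 had the highest level, with a median of 459 CPM per kilobase, above Calb1 with 282 in 16 of 16 libraries. Pcp2 (186), Ppp1r17 (178) and Itpr1 (155.5) followed at like levels, Pcp2 being above Ppp1r17 in 10 of 16 libraries and Ppp1r17 above Itpr1 in 11 of 16. Slc1a6 (86.7) and Pcp4 (61.2) came next, and Gdf10 (29.7) and Rora (27.2) were lowest, in either order, with Gdf10 above in 9 of 16. Neighbours in this order overlapped in range except for Car8 and Calb1.

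All 9 members were low in the cerebellum library of mouse M755, but not to the same degree. As a share of the median of the 16 other libraries, Pcp2 stood at 0.47%, Car8 at 0.71%, Ppp1r17 at 0.73%, Gdf10 at 2.75%, Itpr1 at 2.81%, Calb1 at 5.36%, Slc1a6 at 10.5%, Rora at 17.7% and Pcp4 at 19.97%. Itpr1 and Pcp4 were lower in this library than in any library of cortex or striatum. In mouse M754 the shares were closer together, from 23.6% for Ppp1r17 to 42.9% for Pcp4. In mouse M761 the log2 deviation from the median of the 16 libraries ran from -1.28 for Slc1a6 and -1.22 for Pcp2 to -0.47 for Car8, with Rora at 0.14. In mouse M756, with as much Hox signal as mouse M761, the deviations were between -0.25 and 0.06. The part of other tissue in these levels was not tested.

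**Figure D2:**
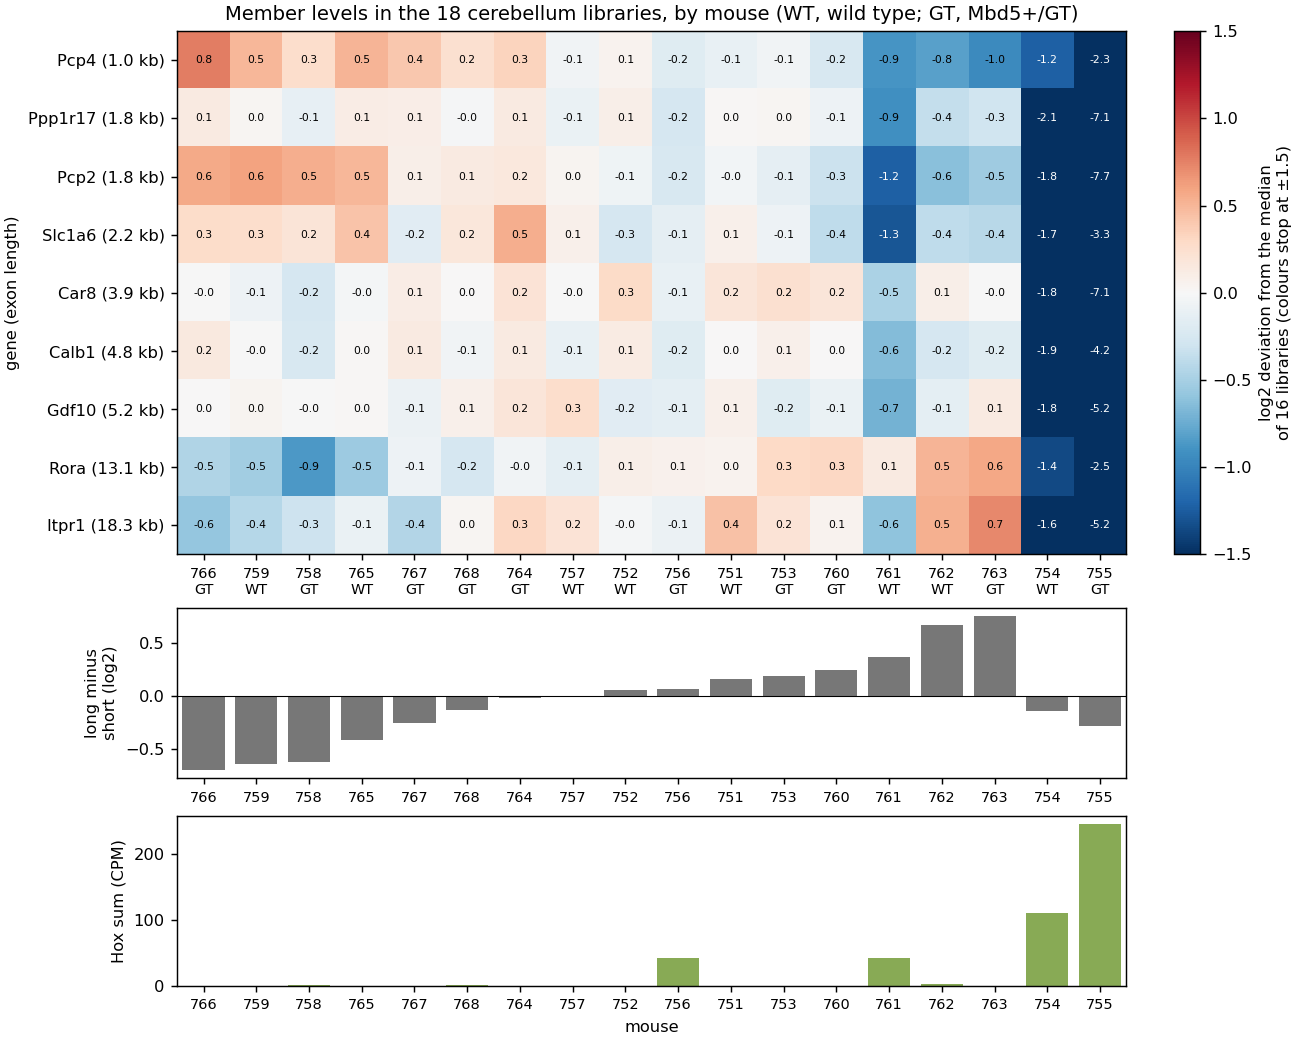
Log2 deviation of each member from its median over 16 cerebellum libraries (upper panel, genes ordered by exon length, colours stopping at 1.5 in either direction), the length measure (middle, log2) and the summed level of 6 Hox genes (lower, CPM), for each mouse. The libraries of mice M754 and M755 are low in every member and high in Hox genes, and from left to right among the other 16 the short genes Pcp4 and Pcp2 go from high to low while Rora goes from low to high.

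The members varied between the 16 remaining cerebellum libraries in a way that went with their length, and long and short genes at large also shifted against each other there. The coefficient of variation was 12.7% for Car8, 13.1% for Calb1, 13.7% for Gdf10 and 15.9% for Ppp1r17, and 26.2% to 32.6% for Slc1a6, Rora, Itpr1, Pcp2 and Pcp4. A length measure was taken in each library as the median log2 deviation of 3940 genes with more than 6000 bases of exon minus that of 910 genes with fewer than 2000, after this pattern had been seen. It was lowest, at -0.70, in Mbd5+/GT mouse M766 and highest, at 0.75, in Mbd5+/GT mouse M763. Over the 16 libraries, Pcp4 (1026 bases) correlated with it at r = -0.92 and rho = -0.94, and Pcp2 (1828 bases) at r = -0.87 and rho = -0.96, with adjusted p = 3e-05 over the 9 members in each case, from a permutation p of 1e-05, the smallest that these permutations can give. Rora (13071 bases) correlated at r = 0.94 and rho = 0.94 (adjusted p = 3e-05 for both, permutation test). Itpr1, the longest at 18319 bases, correlated at r = 0.70 and rho = 0.59 (adjusted p = 0.00544 and 0.0246, permutation test).

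Slc1a6 (r = -0.65, rho = -0.82, adjusted p = 0.0103 and 0.000473, permutation test) and Ppp1r17 (r = -0.55, rho = -0.63, adjusted p = 0.0341 and 0.0191, permutation test) also followed the length measure. Calb1, Car8 and Gdf10, of middle length, had r = -0.40, 0.16 and -0.25 (adjusted p = 0.165, 0.569 and 0.393, permutation test). Without the 2 libraries farthest from the median, r was -0.87 for both Pcp4 and Pcp2, 0.93 for Rora and 0.53 for Itpr1. Within the 6 libraries of litter 1, r was -0.96, -0.86, 0.97 and 0.70 in the same order of genes, and the other litters held 5 such libraries each, too few for a value. Pcp2, Pcp4 and Ppp1r17 belong to the short genes of the measure and Itpr1 and Rora to its long genes. The sign of their relation to it follows in large part from how it was built, and their p-values add no support. The share of all genes that follow the measure was not computed, so whether these relations are particular to the members was not tested. The part of RNA quality or library preparation in this was not tested.

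**Figure D3:**
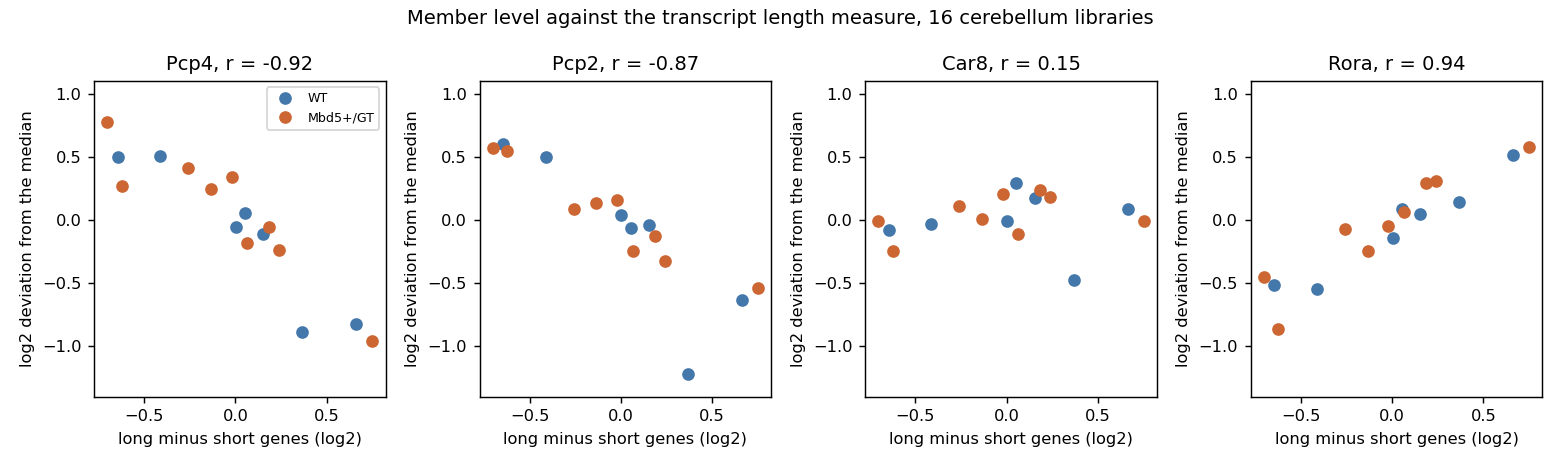
Log2 deviation of 4 members from their median against the length measure (long minus short genes, log2) in the 16 cerebellum libraries without mice M754 and M755, by genotype. Pcp4 and Pcp2 fall with the measure (r = -0.92 and -0.87), Rora rises (r = 0.94) and Car8 has no clear slope (r = 0.16).

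The correlations among members depended on the same libraries. Over all 18 cerebellum libraries, 35 of 36 pairs of members correlated positively at adjusted p under 0.05 (permutation test), with r from 0.42 to 0.99 and a median of 0.92 over the 36. Of all pairs among the 18160 genes tested, 23.7% had an r of either sign as large as the smallest of the called pairs (0.64). A positive r of that size was held by 12.1%. The count of called member pairs rests on mice M755 and M754, whose values lie far from the rest. By rank, 18 of 36 pairs passed, with rho from -0.34 to 0.96, where 26.2% of all pairs were past the smallest called rho (0.56). Over the 16 other libraries 19 of 36 pairs passed, 16 positive and 3 negative, with a median r of 0.48, and 12 of 36 passed by rank. There 27.3% of all pairs reached the smallest called r (0.605) and 23.0% the smallest called rho (0.64), so correlation at this size was common among genes. The strongest was between Calb1 and Ppp1r17 (r = 0.96, rho = 0.94, adjusted p = 0.00012 for both, permutation test), and it was 0.88 without mice M761 and M762. Pcp2 correlated with Pcp4 (r = 0.92, rho = 0.93) and with Slc1a6 (r = 0.90, rho = 0.90), with r = 0.89 and 0.80 without mice M761 and M762. Other called pairs did not hold without these 2 mice. For Pcp2 and Calb1 r fell from 0.665 to 0.186, and for Ppp1r17 and Gdf10 from 0.691 to -0.088. With the 2 libraries farthest from the median of the first gene left out of each pair, 16 of 36 pairs had a negative r. The 3 negative pairs all held Rora, which ran against Pcp2 (r = -0.81, rho = -0.91, adjusted p = 0.000926 and 0.00012, permutation test), Pcp4 (r = -0.79) and Slc1a6 (r = -0.61). Car8 and Itpr1, whose products bind each other, had r = 0.51 and rho = 0.46 (adjusted p = 0.0686 and 0.139, permutation test).

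The genes most like a member in pattern included genes of other cells. Over all 54 libraries, the 5 genes outside the set with the highest r to Pcp2 were Cbln3, Crtam, Fat2, Gabra6 and Cnpy1 (r from 0.99 to 0.987), among them the granule cell genes Cbln3, Fat2 and Gabra6. Over the 18 cerebellum libraries, with 2 libraries low in all members, r reached 0.999 for Car8 with Nrk and 0.998 for Ppp1r17 with En2, a homeobox gene of the cerebellum. Over the 16 other libraries, a set of libraries chosen after the values were seen, the most like genes were Napa and Cdipt for Pcp2 (r = 0.99 for both), Ldha for Pcp4 (r = 0.99), Hipk3 and Med13 for Rora (r = 0.99 for both) and Shisa6 for Itpr1 (r = 0.99). Car8 remained most like Nrk (r = 0.95), Calb1 was most like Slc5a1 (r = 0.95) and Gdf10 was most like Dner (r = 0.95), a Notch ligand of Purkinje cells. These values describe the libraries and share their depth and composition.

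In cortex, the low levels of Pcp2, Ppp1r17 and Car8 moved with the granule cell genes Gabra6, Cbln3 and Fat2, a relation that was not run in striatum. These are 3 of the 8 granule cell markers, and the relation was not run with all 8. All 3 were among the 5 genes most like Pcp2 over the 54 libraries, which include the 18 of cortex. The p-values of Pcp2 against their sum therefore add no support. The sum of the 8 in cortex was 169.5 CPM in mouse M758, 167.9 in M766 and 147.3 in M759. It was also 142.2 CPM in mouse M754, where Pcp2 was at 0.34 CPM, and only 87.8 CPM in mouse M757. Pcp2 was highest in Mbd5+/GT mouse M766 (3.07 CPM, 153 reads) and WT mouse M759 (2.39 CPM, 69 reads), and the sum of Gabra6, Cbln3 and Fat2 was highest in the same libraries, at 24.4 and 36.5 CPM. Mice M758, M760 and M757 followed, with 1.31, 1.19 and 0.95 CPM of Pcp2, while the median of all 18 cortex libraries was 0.31 CPM. Over the 18 libraries the log2 level of Pcp2 correlated with this sum at r = 0.94 and rho = 0.81 (adjusted p = 0.00027 and 0.00243 over 27 such relations, permutation test), and at r = 0.89 without those 2 libraries. Within litters 1 and 3, r was 0.97 and 0.81, and litter 2 held too few libraries. Car8 (r = 0.79, rho = 0.65, adjusted p = 0.000405 and 0.0156, permutation test) and Ppp1r17 (r = 0.70, rho = 0.55, adjusted p = 0.00547 and 0.0488, permutation test) moved likewise, with r = 0.66 and 0.55 without those 2 libraries. The other 6 members had r between -0.16 and 0.39. How many of all genes follow this sum in cortex was not computed. The part of cerebellar tissue in the cortex libraries was not tested.

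In striatum, Rora was at 181.5 CPM in Mbd5+/GT mouse M758 and at 73.2 CPM in WT mouse M762, while the other 16 libraries lay between 21.01 and 54.6 CPM. Markers of thalamus, a structure behind the striatum where Rora is known to be expressed, summed to 581 and 305 CPM in those libraries against a median of 39.4 CPM. The correlation of Rora with that sum (r = 0.65, rho = 0.40, adjusted p = 0.0195 and 0.241, permutation test) rests on these 2 libraries, since r was -0.06 without them. Pcp4, Calb1, Itpr1 and Gdf10 rose with the summed markers of striatal projection neurons, at r = 0.76, 0.69, 0.79 and 0.60 (adjusted p = 0.00216, 0.00547, 0.00373 and 0.0195, permutation test) and rho = 0.78, 0.61, 0.70 and 0.73. Markers of thalamus also moved with Ppp1r17 (r = 0.68, rho = 0.69, adjusted p = 0.00547 and 0.00783, permutation test) and Slc1a6 (r = 0.55, rho = 0.72, adjusted p = 0.0488 and 0.00497, permutation test), with r = 0.54 and 0.83 without mice M758 and M762. Within litters 1 and 3, r was 0.87 and 0.68 for Ppp1r17, and -0.06 and 0.67 for Slc1a6, whose relation did not hold within litter 1. Itpr1 ran against the thalamic sum by rank (rho = -0.58, adjusted p = 0.0351, permutation test) but not by r (-0.43, adjusted p = 0.151, permutation test), and r was -0.71 without those mice. For the striatal markers, without mice M754 and M761, whose striatal sums of 242 and 638 CPM were the lowest, r was 0.85, 0.57, 0.61 and 0.88. Slc1a6 ran the other way (r = -0.75, rho = -0.80, adjusted p = 0.00311 and 0.00243, permutation test) and was highest, at 16.1 CPM, in WT mouse M761. Against the striatal markers within litters 1 and 3, r was 0.74 and 0.78 for Pcp4, 0.96 and 0.63 for Calb1, 0.91 and 0.84 for Itpr1, 0.76 and 0.53 for Gdf10, and -0.92 and -0.80 for Slc1a6. The striatal sum ran from 242 to 7695 CPM over the 18 libraries. The share of all genes that follow the striatal or thalamic sum was not computed, so whether these relations are particular to the members was not tested. The part of dissection in these levels was not tested.

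**Figure D4:**
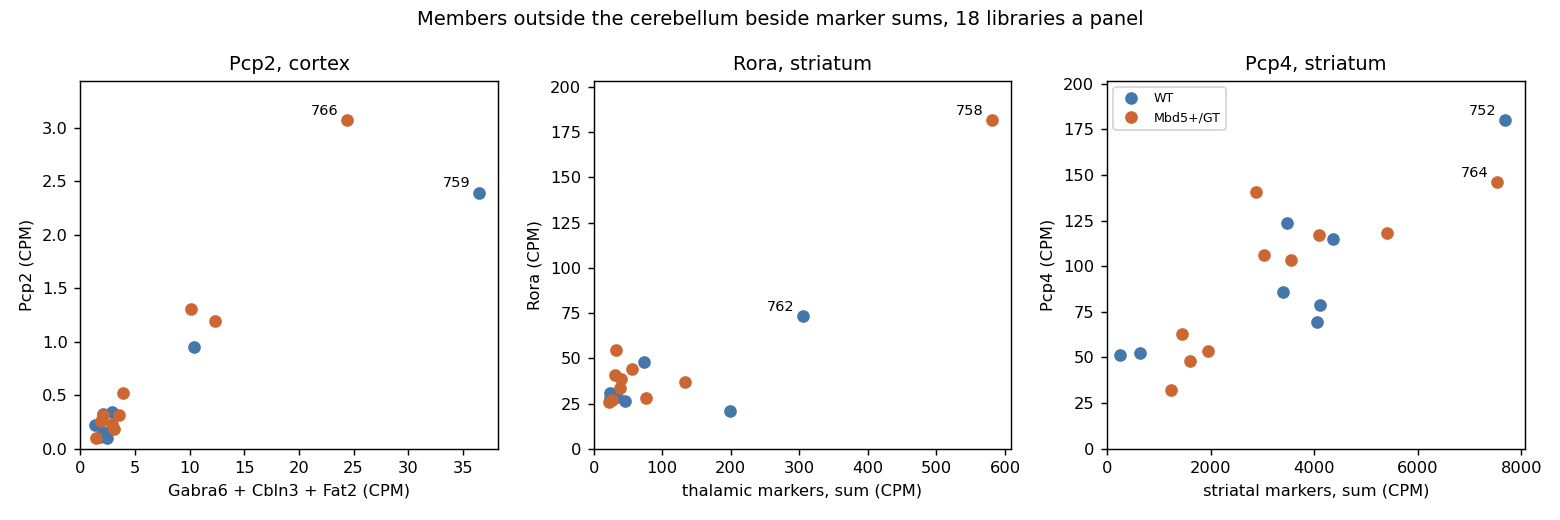
Pcp2 in cortex against the sum of 3 granule cell genes, Rora in striatum against the sum of 5 thalamic markers, and Pcp4 in striatum against the sum of 7 striatal markers (all in CPM), with 1 point a library, 18 a panel, by genotype. The highest Pcp2 (3.07 and 2.39 CPM) and the highest Rora (181.5 CPM) lie at the highest marker sums.

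To ask whether the members changed with reduced Mbd5, genotypes were compared within each region in edgeR's quasi-likelihood test with surrogate variables, which are estimated hidden sources of variation. In cerebellum, 0 of 9 members passed an unadjusted p of 0.05, where 2.75% of the 18160 genes tested did, and 0 passed at adjusted p under 0.05, where 0.00551% of genes did, and DESeq2 likewise called 0 at either threshold. The log2 fold changes of Mbd5+/GT against WT were all below 0, from -0.02 (SE 0.11) for Pcp4 and -0.02 (SE 0.07) for Rora to -0.38 (SE 0.34) for Car8, with a median of -0.21 against -0.003 over all genes. Granule cell markers summed to 167 to 6953 CPM in Mbd5+/GT and to 1877 to 6460 CPM in WT cerebellum. Without mice M754 and M755 the log2 fold changes lay between -0.06 for Itpr1 and 0.07 for Pcp4, and 7 of 9 were above 0. Pcp2 had a mean of 358 ± 94.7 CPM (SD, n = 9) in Mbd5+/GT and 338 ± 131 CPM (SD, n = 7) in WT without those mice, and Car8 had 1828 ± 198 and 1783 ± 280 CPM, so the groups overlapped for both genes. With all 18 mice the 95% interval of Pcp2 ran from -1.03 to 0.38 and that of Rora from -0.15 to 0.10.

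In cortex, 3 of 9 members had an unadjusted p under 0.05, all lower in Mbd5+/GT, where 8.47% of the 18661 genes tested passed in either direction and 4.51% were lower. None passed after adjustment over all genes, where 0.0107% did in edgeR. Itpr1 ranged over 398, 617 and 839 CPM (lowest, median and highest of 10) in Mbd5+/GT and over 565, 753.6 and 915 CPM (of 8) in WT. Its log2 fold change was -0.26 (SE 0.09, adjusted p = 0.472, edgeR), and in litter 2 it was higher in Mbd5+/GT, by 0.19, against differences of -0.38 and -0.31 in litters 1 and 3. Calb1 ranged over 89.9, 131 and 179 CPM in Mbd5+/GT and over 127, 152 and 179 CPM in WT, with a log2 fold change of -0.20 (SE 0.08, adjusted p = 0.513, edgeR). It was lower in Mbd5+/GT in all 3 litters, by 0.29, 0.44 and 0.18 on the log2 scale, and it alone reached an unadjusted p under 0.05 in the exact permutation test of 43758 splits (p = 0.0397, adjusted p = 0.693 over 27 tests, two-sided). Gdf10 ranged over 2.51, 4.82 and 6.40 CPM in Mbd5+/GT and over 3.24, 6.14 and 7.35 CPM in WT, with a log2 fold change of -0.31 (SE 0.13, adjusted p = 0.538, edgeR). The groups overlapped for each of these genes. Markers of striatal projection neurons, all 7 of which were found in these libraries, summed to 243 to 1248 CPM (median 517) in Mbd5+/GT cortex and to 164.5 to 1841 CPM (median 1162) in WT cortex, and their part in these differences was not tested. Of the 3 genes, only Calb1 passed an unadjusted p of 0.05 with litter and sex in place of surrogate variables (p = 0.0218, edgeR), and 0 of 3 did without the cortex libraries of mice M759 and M766, where Slc1a6 was instead the member below 0.05, higher in Mbd5+/GT by 0.23 (p = 0.02, edgeR; adjusted p = 0.675).

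In striatum, 1 of 9 members had an unadjusted p under 0.05, where 7.44% of the 18546 genes tested did and 3.20% were lower in Mbd5+/GT. This was Gdf10, lower by 0.44 on the log2 scale (SE 0.17, adjusted p = 0.63, edgeR). It ranged over 3.97, 6.17 and 16.7 CPM in Mbd5+/GT and over 5.93, 8.19 and 14.3 CPM in WT. The difference within litters was -1.13 in litter 3, -0.09 in litter 1 and 0.17 in litter 2, and it did not pass an unadjusted p of 0.05 without surrogate variables. The striatal markers, with which Gdf10 rose, summed to 1228 to 7543 CPM (median 2960) in Mbd5+/GT striatum and to 242 to 7695 CPM (median 3762) in WT striatum, and their part in this difference was not tested. None of the members passed after adjustment, where 0.00539% of genes did, and the 8 others had log2 fold changes between -0.32 for Pcp2 and 0.02 for Car8. Rora had a mean of 51.2 ± 46.6 CPM (SD, n = 10) in Mbd5+/GT and 35.6 ± 17.1 CPM (SD, n = 8) in WT, with the highest value in Mbd5+/GT mouse M758, without which its log2 fold change was -0.19.

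Whether the genotype effect differed between regions was tested with interaction terms in a fit that held no surrogate variables. In edgeR, 0 of 9 members had an unadjusted p under 0.05 for cerebellum against cortex, where 1.11% of genes did, for cerebellum against striatum, where 2.68% did, or for cortex against striatum, where 4.22% did. The smallest unadjusted p was 0.203, for Rora in cortex against striatum (log2 difference -0.57, SE 0.44).

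**Figure D5:**
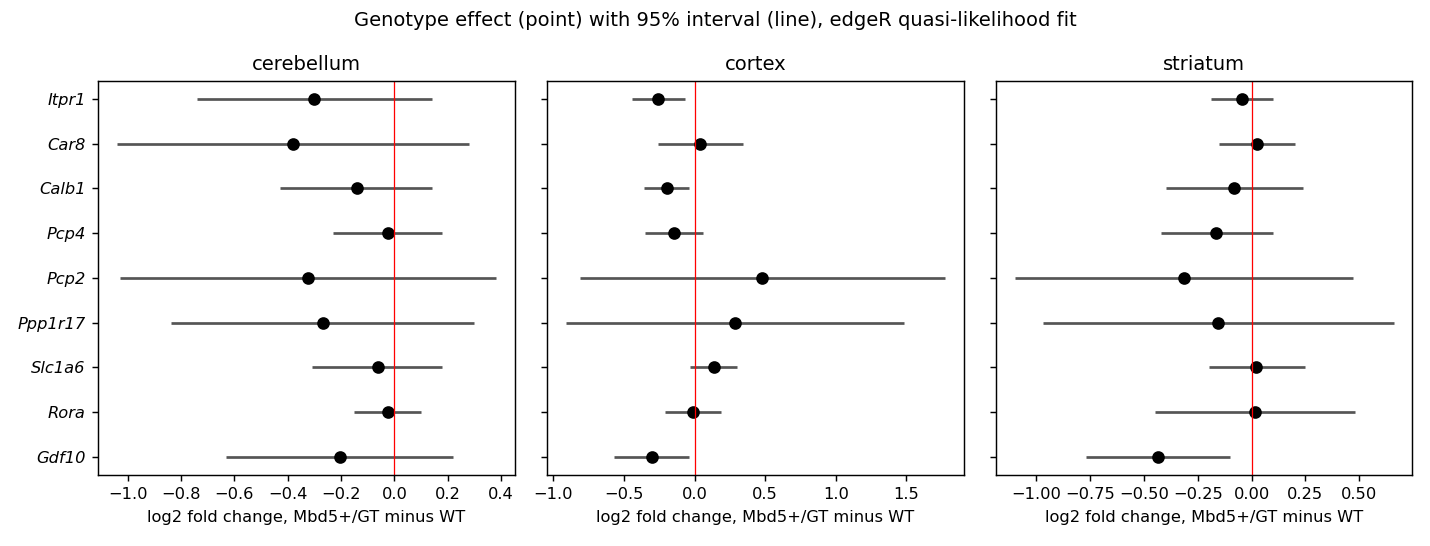
Log2 fold change of Mbd5+/GT against WT (point) with its 95% interval (line) for each member in cerebellum, cortex and striatum, from the quasi-likelihood fit with surrogate variables. In cortex and striatum the intervals are widest for Pcp2 and Ppp1r17, and only Itpr1, Calb1 and Gdf10 in cortex and Gdf10 in striatum have intervals wholly below 0.

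A wider list of 34 genes set the members in context, and 39.6% of the 20477 genes tested had their highest median level in cerebellum. Of 11 genes of Gq and IP3 signalling at the parallel fibre synapse, 9 had their highest median level in cerebellum, with Homer3 (324 CPM against 9.19 in cortex and 12.3 in striatum), a scaffold protein of the synapse that binds the IP3 receptor, as the clearest case. Gnaq was highest in cortex and Itpka, an IP3 kinase, in striatum. Of 6 genes of calcium entry, buffering and extrusion, 5 were highest in cerebellum, led by the pump gene Atp2a3 with 264 CPM against 9.08 in cortex and 9.32 in striatum. Of 7 transcription factors, 6 were highest in cerebellum, among them En2 (122.5 CPM against 0.74 and 1.07), and Foxp2 was highest in striatum. Of 10 other genes, 5 were highest in cerebellum, near the share of all genes, while Pcp4l1, a relative of Pcp4, was highest in striatum, as Pcp4 was, at 356 CPM against 49.99 in cerebellum.

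In mouse M755, 22 of the 34 stood below 50% of the median of the 16 other libraries, as did 14.2% of all 18160 genes tested in cerebellum. They ran from En2 (3.15%), Atp2a3 (3.42%) and Ryr1 (4.03%) upwards. Another 4 of the 34 stood above that median, as did 47.4% of all genes: Pcp4l1 (289 CPM, 588%), Ebf2 (19.7 CPM, 161%), Slc32a1 (155 CPM, 155%), the transporter of inhibitory synaptic vesicles, and Shh (4.89 CPM, 105%). In cerebellum 0 of 34 passed an unadjusted p of 0.05 for genotype, where 2.75% of all genes did, with a median log2 fold change of -0.06. In cortex 7 of 32 tested did, 6 lower and 1 higher in Mbd5+/GT, at a median of -0.02, where 8.47% of all genes did and 4.51% were lower. Among the lower genes were Ryr1 (-0.35), which encodes a calcium release channel, Pcp4l1 (-0.36), Ebf2 (-0.61) and Gad2 (-0.28), which encodes an enzyme of GABA synthesis. In striatum 3 of 32 did, where 7.44% of all genes did, among them Lhx5 (-1.20, at a median of 0.098 CPM) and Inpp5a (-0.15), both lower. None of these passed after adjustment over all genes in edgeR.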

How the data were processed

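RNA-seq was carried out on cerebellum, cortex and striatum of 18 mice, 1 library per region and mouse. The authors deposited raw read counts per gene for 47069 genes and 92 ERCC spike-in sequences, which were left out here. Per the submitters' processing notes and the study's methods, reads were checked with FastQC 0.10.1 and aligned with STAR 2.4.2 to GRCm38, with genes from Ensembl release 83. How strand was treated is not given in the sources used here, and counts from stretches where genes overlap are uncertain. Coordinates and exon lengths came from GENCODE M21, in which 46488 identifiers matched.

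Groups came from the labels. Genes were tested where 8 libraries or more each held over 4 counts, in edgeR 4.0.16 (quasi-likelihood, robust, TMM, R 4.3.3) with Benjamini-Hochberg adjustment over all genes tested. Genotype was fitted within each region with 2 (cerebellum), 4 (cortex) or 4 (striatum) surrogate variables from sva 3.50.0. Regions were compared over all 54 libraries without a term for the mouse. DESeq2 1.42.0 was an alternative. CPM used TMM library sizes over 54 libraries, with a prior count of 2 for log2 values. Correlations used 100000 permutations and single values the exact permutation test (scipy 1.17.1). The genotype fit without surrogate variables and a region fit without interaction terms were tested on simulated data. The fits with surrogate variables and the correlations were not.

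Depth ran from 25295973 to 49027399 counts per library, and no pair of libraries of 1 group agreed within sampling noise (lowest chi-square per gene 8.85 over 219 pairs). Mouse numbers pair the regions because they name the same animal. Deviations of the same mouse correlated between regions at a median of 0.164 (cerebellum and cortex), 0.0911 (cortex and striatum) and 0.0618 (cerebellum and striatum).

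The members and all gene lists were chosen with earlier results of these data known. All 9 members were named. Genes of the wider list were named where their unadjusted p for genotype was under 0.05, for a marked level in cerebellum or as an example of a role, some genes of that list are not reported here, and likeness took the genes with the highest r. The length measure, the relations to marker sums and all settings that leave out named mice were chosen after seeing the data.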

Additional observations from a re-analysis of the deposited data

Results flagged for a closer look

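In 54 groups of 8 or 10 libraries, 1 for each member, region and genotype, 12 held a library that stood far from the nearest other one by Dixon's criterion. Chance meets it in about 1 in 20 groups of normally distributed values. The criterion was applied to CPM without a log scale, and the groups share libraries, so the 12 cannot be set against that rate. Of the 12, 5 were the cerebellum library of Mbd5+/GT mouse M755, the lowest of its group for Calb1 (73.2 CPM), Car8 (12.5 CPM), Gdf10 (4.26 CPM), Ppp1r17 (2.29 CPM) and Slc1a6 (19.5 CPM). In cortex, Pcp2 was far above its group in Mbd5+/GT mouse M766 (3.07 CPM) and WT mouse M759 (2.39 CPM), and so was Ppp1r17 in WT mouse M759 (2.81 CPM). In striatum, Rora (181.5 CPM) and Ppp1r17 (2.403 CPM) stood apart in Mbd5+/GT mouse M758. Slc1a6 stood apart in the striatum of WT mouse M761 (16.1 CPM), and Car8 in that of WT mouse M757 (15.8 CPM).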

How the results depend on the processing

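The counts of members that differed between regions (9, 9 and 4) were the same with the mouse as replicate block, where the interaction count was 0, and with DESeq2 or its size factors, and the block changed no call of a member. For genotype, no member passed after adjustment under any setting with a value here, but many directions turned. In cerebellum the log2 fold changes without surrogate variables were 0.055 for Pcp2, 0.138 for Pcp4, 0.076 for Calb1, 0.011 for Car8, 0.076 for Ppp1r17, 0.003 for Rora, 0.084 for Slc1a6 and 0.03 for Gdf10, and with litter and sex 0.086 for Rora. Without mice M754 and M755 they were 0.013 for Pcp2, 0.065 for Pcp4, 0.036 for Calb1, 0.031 for Ppp1r17, 0.042 for Rora, 0.018 for Slc1a6 and 0.006 for Gdf10, and the differences of mean log2 CPM were 0.146 for Pcp2, 0.106 for Calb1, 0.045 for Car8, 0.124 for Ppp1r17, 0.01 for Rora and 0.076 for Gdf10. The correlated pairs then numbered 19.

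In cortex Car8 was at -0.003 without surrogate variables, -0.012 with litter and sex, -0.061 with no filter, -0.069 with at least 10 counts in every library (the strict filter), -0.28 without litter 2 and -0.019 without mice M759 and M766. Rora was at 0.024 with litter and sex, and without litter 2 Pcp2 was at -0.684 and Ppp1r17 at -0.31. In striatum without surrogate variables Calb1 was at 0.022, Itpr1 at 0.113, Ppp1r17 at 0.025 and Slc1a6 at -0.167, and with litter and sex Itpr1 was at 0.063 and Slc1a6 at -0.02. Car8 was at -0.036 under the strict filter, -0.024 without litter 2, -0.022 without mice M754 and M761 and -0.02 without mouse M758. Rora was at -0.146 under the strict filter, -0.041 without the libraries labelled as repeated and -0.187 without mouse M758. Slc1a6 was at -0.035 without the repeated libraries and -0.007 without mice M754 and M761, where Ppp1r17 was at 0.134.

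The members with an unadjusted p under 0.05 numbered 1 in cortex with litter and sex, and 1 without mice M759 and M766. In striatum they numbered 0 without surrogate variables, with litter and sex, with no filter, under the strict filter and without litter 2. Over all genes tested, the share passing was 0.463% in cerebellum without surrogate variables, 0.529% with litter and sex and 4.24% with no filter, and in cortex 3.43% and 4.11% in the order of the first pair. In striatum it was 4.34% under the strict filter, 1.57% without litter 2 and 4.66% without the repeated libraries. The number of genes passing without a filter was 1290 in cerebellum and 2470 in cortex, of more genes tested. The causes were not tested. The strict filter left Pcp2 and Ppp1r17 untested in cortex and striatum, where as few as 1 to 3 reads were counted in a library.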
